A study of Mus musculus with 10 samples.

Results

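The integrated stress response (ISR) was followed through 10 of its genes, Atf4, Atf5, Ddit3, Trib3, Chac1, Ppp1r15a, Asns, Sesn2, Cebpg and Eif2ak3, in single retinal ganglion cells (RGCs), the projection neurons of the retina. The genes were taken by symbol from the 34254 features counted in each library, and all 10 were among the 14234 genes with enough counts to be tested. The study profiled RGCs by droplet single-cell RNA-seq, in which each captured mRNA molecule is counted once by its unique molecular identifier (UMI). There were 6 libraries from uninjured retinas (1683 cells) and 4 from retinas 2 weeks after optic nerve crush (ONC), which injures RGC axons behind the eye (1609 cells). The labels give all mice as wild-type 129S1/SvImJ animals of both sexes, aged 12 weeks. RGCs were enriched with antibodies to the surface protein Thy1 from pools of 10 retinas, after macrophages (per the labels) or macrophages and amacrine cells (per the paper) had been removed by panning, so that a library is a pool of animals, and only RGCs that survived to 2 weeks could be captured after injury.

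Libraries held 2839693 to 23180399 UMIs in the uninjured group and 4698799 to 8860536 in the injured group, with medians of 20437 to 34337 and 11257 to 14695 UMIs per cell. Injured 3 and 4 shared 421 cell barcodes and differed by less than the sampling noise, so they were averaged and counted as 1 sample, injured 3/4. This left 6 uninjured and 3 injured samples, and p-values measure the spread between these pools. The uninjured libraries came in like pairs: the median over genes of the squared difference, relative to sampling noise, was 1.75 for 1 and 2, 1.81 for 3 and 4, 1.44 for 5 and 6, and at least 3.46 across these pairs. For injured 1 and 2 it was 2.1, and with injured 3 or 4 at least 4.13. The labels do not say what the pairs share, and the test takes the 6 uninjured and 3 injured samples as independent. Xist, which is expressed from an inactive X chromosome, was detected in 62.1% of injured 1 cells and 67.4% of injured 2 cells, but elsewhere in no more than 0.569% of a library, which for those 8 libraries goes against the label of both sexes. The reporter mCherry, carried by viral vectors in other experiments of the study and not named in the labels of these libraries, had a UMI in most cells of injured 3 (86.0%) and injured 4 (84.3%), in 7.99% of injured 1, in 15.0% of injured 2, and in 0 uninjured cells. Droplets with under 1% of their UMIs from ribosomal protein genes made up 18.8% of injured 3, 17% of injured 4, at most 0.366% of injured 1 and 2, and 0 to 12.2% of the uninjured libraries. Over all cells the groups did not overlap in median ribosomal share, 2.47% to 4.45% in uninjured and 5.23% to 5.99% in injured libraries, nor in that of the nuclear RNA Malat1, 1.72% to 4.82% and 6.37% to 7.78%.

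The cells carried the RGC markers in every library, with the summed level of 8 marker genes at 5797 to 8239 CPM (UMIs scaled by library total and TMM factor) in uninjured and 4283 to 5611 CPM in injured libraries. Within this list Rbpms, Sncg, Pou4f1, Pou4f2 and Nefl were lower after injury, Tubb3 was higher, and Slc17a6 and Thy1 did not pass the test. Markers of other cells moved with injury in part. Of 10 microglia markers only 3 had enough counts to be tested (Cx3cr1, the most abundant, and Cd68 higher), at a summed 5.89 to 19.2 CPM in uninjured and 13.8 to 26.7 CPM in injured libraries. Müller glia markers, led by Clu, summed to 206 to 271 CPM and 295 to 475 CPM (4 higher and 2 lower of 7 tested). Amacrine markers, led by Pax6, summed to 569 to 760 CPM and 392 to 580 CPM (2 higher and 2 lower of 10). Astrocyte, photoreceptor and bipolar lists had 2, 3 and 2 genes tested, of which 0, 1 and 0 were higher and 0, 0 and 1 lower, and none of 7 endothelial markers had enough counts. The part of other cells that passed the panning, or of their free RNA, in the changes of the ISR genes was not tested beyond a fit without marker-positive cells.

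In the ISR, the stress-sensing kinases PERK (Eif2ak3), GCN2, PKR and HRI phosphorylate the translation factor eIF2α, which lowers most protein synthesis while the mRNA of the transcription factor ATF4 is translated more. ATF4 and its partners then raise the transcription of genes for amino acid supply, redox balance and, when the stress lasts, cell death through CHOP (Ddit3). In RGCs the response is known to be switched on by axon injury downstream of the kinase DLK, with ATF4 and CHOP among the factors that shape survival of the cell.

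ATF4 binds DNA as a dimer with C/EBP proteins at the C/EBP-ATF response element (CARE), and its letters TGATGNAA were therefore looked for on both strands of the promoters in the RefSeq-derived table (GRCm38.p6; 250 bases before to 50 after each start site). All 10 genes had an entry there, 11 promoters in all. The letters occurred in 3 of the 10 genes, Asns, Chac1 and Trib3, against 4.51% of the 27025 genes and 3.97% of the 32851 promoters in the table. Each match is shown within 30 bases, 5′ to 3′ on the gene's strand, with the 8 matching letters in capitals. Positions are on GRCm39, the build of the count files, and were found by exact match of the promoter.
Asns, chr6:7693214-7693243, minus strand: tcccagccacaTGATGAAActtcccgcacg
Chac1, chr2:119181519-119181548, plus strand: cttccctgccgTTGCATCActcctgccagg
Trib3, chr2:152185948-152185977, minus strand: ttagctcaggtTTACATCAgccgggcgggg
In Asns the match lay 23 bases before the start site and read along the gene. In Chac1 it lay 193 bases before the start site and in Trib3 14 bases after it, both on the opposite strand. The GENCODE vM39 models place the Asns and Trib3 stretches in an exon of the canonical transcript and the Chac1 stretch outside it. No match was found in the windows of the other 7 genes, which says only that these letters are not in those windows.

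The 4 transcription factors were all higher after injury, in a comparison in which 21.3% of the 14234 genes tested were higher, 22.7% were lower, and the samples of the groups did not overlap for 42.9%. Atf4 (chr15:80139372-80141745, plus strand), the factor at the centre of the response, ranged from 56.6 to 101 CPM with a median of 62.1 over the uninjured libraries, and stood at 307, 291 and 355 CPM in injured 1, 2 and 3/4. The uninjured libraries split in this gene, with uninjured 5 and 6 near 100 CPM and uninjured 1 to 4 at 56.6 to 63.0 CPM, but none reached the injured samples. Means were 73.2 ± 21.2 (SD, n = 6) and 318 ± 33.1 CPM (SD, n = 3), a log2 fold change of 2.12 (SE 0.21; edgeR quasi-likelihood test, Benjamini-Hochberg adjusted p = 8.89e-06). Without uninjured 5 and 6, a fit chosen after seeing the data, it was 2.42.

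Ddit3 (chr10:127124268-127132163, plus strand) encodes CHOP, the ATF4-induced factor tied to cell death. It was held closely among the uninjured libraries, at 42.3 to 48.1 CPM with a median of 45.2, and reached 562, 588 and 518 CPM in injured 1, 2 and 3/4. The rise of 12.3-fold (log2 3.62, SE 0.12; edgeR adjusted p = 2.39e-09) was far outside the spread of either group. The 3′ end of Ddit3 lies opposite that of Mars1, a methionyl-tRNA synthetase gene, over up to 574 bases of the canonical transcript. Mars1 went from 13.9 ± 1.89 CPM (SD, n = 6) to 26.0 ± 2.19 CPM (SD, n = 3). The paper's methods give default parameters, with which Cell Ranger counts reads on the gene's own strand. The files list a second feature under the Ddit3 symbol with a number added, which held 0 UMIs; they give no gene IDs, and of the 2 gene models with this symbol the position above is that of the one with the longer canonical transcript.

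Atf5 (chr7:44461680-44466082, minus strand), a close relative of Atf4 whose mRNA is under the same kind of translational control, ranged from 11 to 16.8 CPM with a median of 14.0 before injury. It reached 195, 210 and 234 CPM in injured 1, 2 and 3/4, a 15.3-fold rise (log2 3.93, SE 0.15; edgeR adjusted p = 5.33e-09). Cebpg (chr7:34745847-34756011, minus strand), which encodes the C/EBP partner with which ATF4 can bind the CARE, had 24.4 to 36.0 CPM (median 28.2) before and 122, 101 and 106 CPM after injury. Its rise was 3.81-fold (log2 1.93, SE 0.13; edgeR adjusted p = 5.69e-07). The groups did not overlap for any of the 4 factors.

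Among the targets of these factors, Chac1 and Trib3 were nearly silent in uninjured RGCs. Chac1 (chr2:119180757-119184866, plus strand), which encodes an enzyme that breaks down glutathione, ranged from 2.02 to 4.78 CPM with a median of 2.58 and rose to 87.9, 90.3 and 136 CPM in injured 1, 2 and 3/4. Uninjured 5 and 6, at 4.78 and 4.53 CPM, were again the highest of their group. With a mean of 3.17 ± 1.18 against 105 ± 27.4 CPM (SD, n = 6 and 3), it rose 33.8-fold (log2 5.08, SE 0.24; edgeR adjusted p = 3.36e-08).

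Trib3 (chr2:152179337-152191958, minus strand) encodes a pseudokinase that is induced by ATF4 and CHOP and restrains them and the kinase AKT. It was counted with only 1 to 28 UMIs in a whole uninjured library, 0.337 to 1.15 CPM, and with 24.7 to 31.3 CPM in the injured samples. The rise was 29.9-fold (log2 4.90, SE 0.23; edgeR adjusted p = 3.01e-08). The filter that asks for 10 UMIs in every sample leaves out both Trib3 and Chac1, so it cannot speak to these genes.

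Asns (chr6:7671667-7728461, minus strand), which makes asparagine, was well expressed before injury, at 67.9 to 86.1 CPM (median 74.1), and reached 288, 316 and 276 CPM in injured 1, 2 and 3/4. The rise was 3.82-fold (log2 1.93, SE 0.12; edgeR adjusted p = 2.52e-07). Sesn2 (chr4:132219335-132237815, minus strand), a leucine-sensing inhibitor of mTORC1, went from 3.71 to 6.80 CPM (median 5.33) to 37.1, 31.4 and 37.3 CPM, 6.65-fold higher (log2 2.73, SE 0.17; edgeR adjusted p = 2.79e-07).

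Of the 10 genes, Eif2ak3 and Ppp1r15a act on eIF2α phosphorylation itself. Eif2ak3 (chr6:70821461-70882235, plus strand), the gene of the endoplasmic reticulum kinase PERK, had 20.2 to 27.9 CPM (median 24.1) before and 72.3, 76.1 and 76.5 CPM after injury, 3.08-fold higher (log2 1.62, SE 0.13; edgeR adjusted p = 1.80e-06). Ppp1r15a (chr7:45172340-45175692, minus strand) encodes GADD34, which brings a phosphatase to eIF2α and so ends the response. It had 4.14 to 13.8 CPM with a median of 7.65 before injury, and stood at 20.3, 18.0 and 29.0 CPM in injured 1, 2 and 3/4. Its rise of 2.86-fold had the widest 95% interval (log2 1.52, 0.82 to 2.21; edgeR adjusted p = 0.00225), and uninjured 5, at 13.8 CPM, came close to injured 2. Without uninjured 5 and 6 the log2 fold change was 1.93, against 1.90 for Cebpg.

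**Figure D1:**
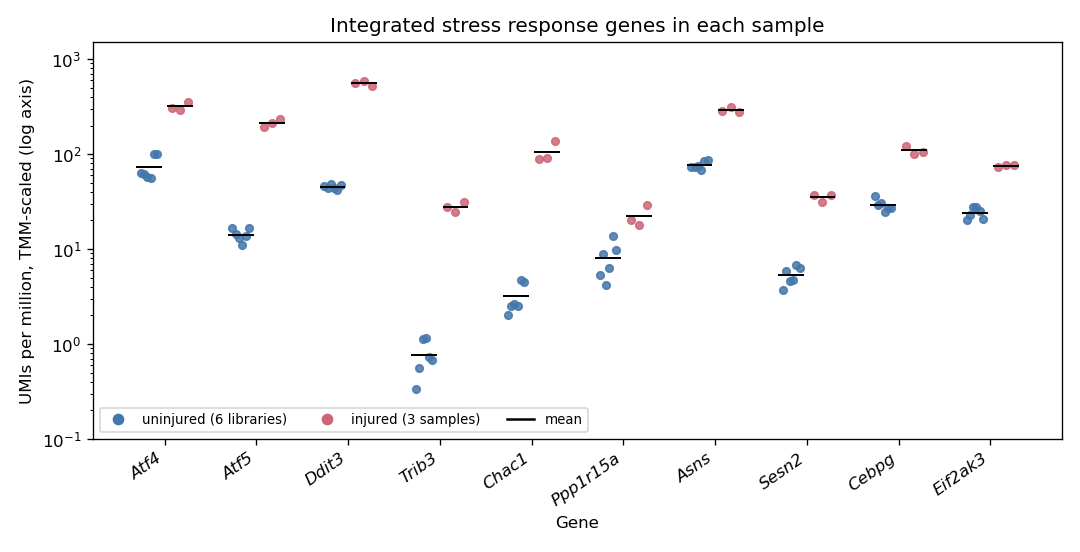
Level of each ISR gene in CPM, TMM-scaled, on a log axis, for 6 uninjured libraries (blue) and 3 injured samples (red), with group means as bars. No gene has an uninjured point above an injured one, and Ppp1r15a has the smallest gap, 13.8 against 18.0 CPM.

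All 10 genes were thus higher after injury in the test over all genes, and for all 10 the groups did not overlap. Against 21.3% higher, 22.7% lower and 42.9% without overlap over all genes tested (6256 called in all), a call alone was common in this comparison. The median log2 fold change was 2.43 over the 10 genes and -0.03 over all genes tested. Each of 28 alternative fits called every one of the 10 genes it tested as higher, while the count over all genes dropped to 3160 when injured 1 and 2, the libraries with Xist, were left out. With like libraries summed to 5 units 4181 genes were called, and with them as a random block in limma-voom 4305. A fit without cells holding UMIs of at least 3 markers of another class, which kept only 535 uninjured and 929 injured cells, was among the 28. In the fit without injured 1 and 2, chosen after seeing the data, the lone injured sample is assumed to vary like the uninjured ones. Injury and the shares of cells with Xist and mCherry differ together between the groups, and their part was not tested beyond the fits that leave out injured 1 and 2 or injured 3/4. The ribosomal and Malat1 shares and the depth of the cells also differed between the groups without overlap. Thinned cells and droplets with at least 1% ribosomal UMIs were fitted among the 28, and the part of these shares was not tested otherwise.

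**Figure D2:**
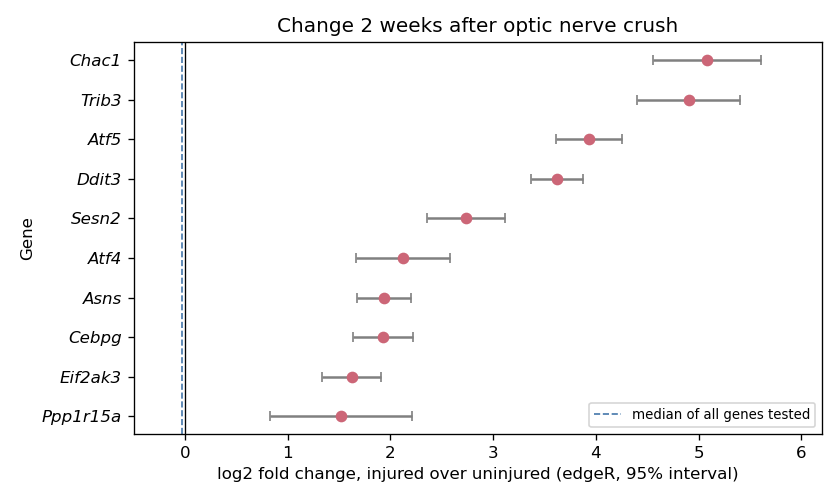
log2 fold change of each ISR gene, injured over uninjured, from edgeR, with 95% intervals as bars; the dashed line marks the median of all genes tested, -0.03. Estimates run from 1.52 for Ppp1r15a to 5.08 for Chac1.

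The genes that surround the 10 in the pathway were counted from lists, to be read against the 21.3% higher and 22.7% lower among all genes tested. The lists were chosen with earlier results of these data known, and some genes stand in several lists. The counts are therefore a description and not an independent comparison with all genes. Of 16 genes for eIF2α kinases, phosphatase subunits and their regulators, 4 were higher, 3 lower and 9 did not pass, with a median log2 fold change of 0.01. These counts were near the shares over all genes, and the genes below are given singly. Besides Eif2ak3 and Ppp1r15a, Eif2ak2, the interferon-inducible kinase PKR, was higher, at 0.337 to 2.22 CPM before and 11.3 to 21.3 CPM after injury (log2 3.41, SE 0.39; edgeR adjusted p = 2.70e-05). Impact, an inhibitor of GCN2 activation that is abundant in neurons, was the most abundant gene of the list and fell from 320 ± 34.9 to 112 ± 15.5 CPM (SD, n = 6 and 3; log2 -1.51, SE 0.16; edgeR adjusted p = 1.28e-05). The other lower genes, named after their values were seen, were Nck1 and Dele1. Of the 8 subunits of eIF2 and its exchange factor eIF2B, 2 were higher and 6 did not pass, again near the 21.3% over all genes. The higher ones were Eif2s2, the β subunit, from 216 ± 32.9 to 564 ± 38.0 CPM (log2 1.39, SE 0.15; edgeR adjusted p = 2.22e-05), and Eif2s3x, a γ subunit, from 38.8 ± 2.74 to 57.0 ± 1.93 CPM (log2 0.55, SE 0.11; edgeR adjusted p = 0.00159; SD, n = 6 and 3).

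Factors of the bZIP class, with which ATF4 and CHOP dimerize or which act beside them, were listed together with Nupr1, which is not of this class. Of 16 tested, 12 were higher and the other 4 did not pass (median log2 2.02). Of the 12, 4 are ISR genes described above. The largest change was that of Atf3, an injury-induced factor that is itself a target of ATF4. It was counted at 0 to 2.51 CPM before injury and at 802, 835 and 761 CPM in injured 1, 2 and 3/4 (log2 9.37, SE 0.44; edgeR adjusted p = 3.36e-08). Cebpd was higher too, from at most 1.01 CPM to 3.68 to 6.45 CPM (log2 3.18, SE 0.41; edgeR adjusted p = 7.58e-05). Jund, the most abundant gene of the list, did not pass the test at 364 ± 175 and 611 ± 209 CPM (SD, n = 6 and 3), and uninjured 5 and 6, at 589 and 590 CPM, overlapped with the injured samples.

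Enzymes of amino acid and one-carbon metabolism were higher in 12 of 15 tested, Asns among them, and 3 did not pass. Their median log2 fold change was 3.07. Phgdh, which opens serine synthesis, was at 0.658 to 1.58 CPM before injury and at 217, 243 and 199 CPM in injured 1, 2 and 3/4 (log2 7.77, SE 0.23; edgeR adjusted p = 1.72e-09). Psat1, the next enzyme of serine synthesis, rose from 5.83 ± 1.28 to 94.6 ± 8.31 CPM (SD, n = 6 and 3; log2 3.97, SE 0.16; edgeR adjusted p = 9.92e-09). Cth, which makes cysteine from cystathionine, and Aldh1l2, a mitochondrial folate enzyme, rose by 6.32 and 4.86 on the log2 scale. Got1, the most abundant enzyme of the list, was at 465 ± 92.4 and 481 ± 132 CPM (SD, n = 6 and 3) and did not pass the test (log2 0.05, SE 0.21).

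Amino acid transporters were higher in 10 of 12 tested and lower in 1, Slc7a8 (named after its values were seen), with a median log2 fold change of 1.7. Slc7a3, a carrier of cationic amino acids, was at 0.150 to 1.01 CPM before and 30.3 to 47.7 CPM after injury (log2 6.39, SE 0.31; edgeR adjusted p = 4.71e-08). Slc7a5 and Slc3a2, the light and heavy chains of a carrier of large neutral amino acids, rose by 4.34 and 2.54 on the log2 scale, and Slc7a1, another cationic carrier, by 2.90. Slc7a5 differed between the injured samples, with 61.6, 59.7 and 125 CPM in injured 1, 2 and 3/4. The most abundant gene, Slc38a1, a glutamine carrier, rose from 151 ± 17.7 to 280 ± 51.2 CPM (SD, n = 6 and 3; log2 0.89, SE 0.15; edgeR adjusted p = 0.000471).

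All 20 cytosolic aminoacyl-tRNA synthetases, which charge tRNAs with amino acids, were higher after injury, with a median log2 fold change of 0.97. Lars, Eprs, Gars and Cars changed most, by 2.28, 2.08, 1.99 and 1.87 on the log2 scale. Nars, the most abundant, rose from 219 ± 34.8 to 522 ± 37.4 CPM (SD, n = 6 and 3; log2 1.25, SE 0.16; edgeR adjusted p = 5.18e-05).

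Other effectors that ATF4 and CHOP are known to induce were higher in 18 of 23 tested and lower in 3 (Sesn3, Jdp2 and Tmem50b, named after their values were seen), with a median log2 fold change of 1.32. Pmaip1, which encodes the BH3-only protein Noxa, had no UMI in any uninjured library and 20.8, 23.8 and 22.8 CPM in injured 1, 2 and 3/4. Set against the 3 counts that a count of 0 allows over the uninjured group, it was at least 405-fold higher, and with it at this bound the median of the list was the same. Bcl2l11, which encodes the BH3-only protein Bim, rose from 3.49 ± 1.06 to 126 ± 6.21 CPM (SD, n = 6 and 3; log2 5.24, SE 0.18; edgeR adjusted p = 3.45e-09). Eif4ebp1, a repressor of cap-dependent translation, and Gdf15, a secreted stress hormone, rose by 5.57 and 5.21 on the log2 scale. The most abundant gene, Map1lc3b, an autophagosome protein, did not pass the test at 325 ± 77.0 and 416 ± 68.3 CPM (SD, n = 6 and 3).

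The parallel arms of the unfolded protein response were counted in the same way. The IRE1-XBP1 list had 6 higher and 1 lower of 12 tested (median log2 0.36), with Ern1, the gene of IRE1 itself, up by 1.75, the transport gene Sec24d by 1.42, the translocon gene Ssr3 by 1.09 and Xbp1 by 0.82 on the log2 scale. Sec61b, a translocon subunit, was at 85.6 ± 19.9 and 93.9 ± 10.9 CPM (SD, n = 6 and 3) and did not pass, and the lower gene, named after its values were seen, was Dnajc10. The list of ATF6 and endoplasmic reticulum chaperones had 8 higher and 1 lower of 18 tested (median log2 0.29). Hspa5, the chaperone BiP, rose from 145 ± 22.5 to 444 ± 69.9 CPM (SD, n = 6 and 3; log2 1.62, SE 0.16; edgeR adjusted p = 8.89e-06), whereas Canx, a lectin chaperone, fell from 306 ± 11.5 to 169 ± 26.6 CPM (SD, n = 6 and 3; log2 -0.85, SE 0.14; edgeR adjusted p = 0.000352). Sdf2l1, Herpud1 and Atf6 itself rose by 1.83, 1.32 and 1.32 on the log2 scale. Mitochondrial stress genes had 3 higher, 1 lower and 6 not past the threshold, of 10 tested (median log2 0.00), where 21.3% higher and 22.7% lower held over all genes. Taken singly, the chaperone Hspa9 and the protease Lonp1 were up by 2.20 and 2.00 on the log2 scale, the co-chaperone Dnaja3 was up by 0.89, and Dele1, which relays mitochondrial stress to HRI, was lower (log2 -0.43, SE 0.15; edgeR adjusted p = 0.0306). Hspe1, a chaperonin subunit, was at 178 ± 48.0 and 155 ± 10.0 CPM (SD, n = 6 and 3) and did not pass.

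Immediate early genes, which also respond to the handling of cells, were higher in 7 and lower in 4 of 16 tested (median log2 0.48). Besides Atf3, Socs3 rose by 4.52 on the log2 scale from at most 0.919 CPM. Jun rose from 64.1 ± 21.9 to 510 ± 48.5 CPM (SD, n = 6 and 3; log2 2.99, SE 0.24; edgeR adjusted p = 1.78e-06), while Fos fell from 87.1 ± 63.2 to 16.6 ± 2.38 CPM (SD, n = 6 and 3; log2 -2.39, SE 0.57; edgeR adjusted p = 0.00491). Summed over the list, uninjured 5 and 6 had 730 and 657 CPM and uninjured 1 to 4 had 250 to 364 CPM. These are the same 2 libraries in which Atf4, Chac1, Ppp1r15a, Asns and Sesn2, 5 of the 10 ISR genes, were highest before injury. Over all genes, the median squared difference between them and uninjured 1 to 4, relative to sampling noise, was 8.90 to 15.95. The share of all genes that were highest in these 2 libraries was not counted. The 5 of 10 can therefore not be read as particular to the ISR genes, and the part of cell handling was not tested.

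**Figure D3:**
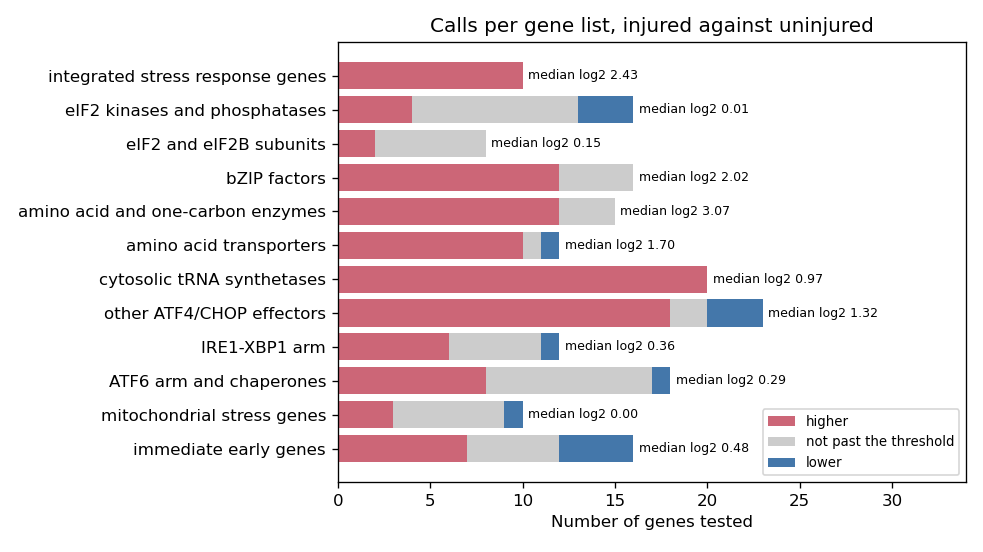
Number of genes tested in each list that were higher (red), lower (blue) or not past the threshold (grey) after injury, with each list's median log2 fold change. All 20 tRNA synthetases and all 10 ISR genes are higher, and the eIF2 kinase and phosphatase list holds 4 higher and 3 lower of 16.

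The change was next followed from cell to cell. Injured cells had fewer UMIs than uninjured cells, so each cell was thinned to 5000 UMIs, which kept 1674 uninjured and 1572 injured cells. Ddit3 then had a UMI in 14.1% to 27.2% of the cells of an uninjured library (mean 21.8% ± 5.14, SD, n = 6) and in 80.5% ± 6.64 of injured cells (SD, n = 3). Atf4 went from 29.8% ± 5.20 to 72.4% ± 2.96, and Atf5 from 5.98% ± 2.06 to 59.1% ± 2.20 (SD, n = 6 and 3). Chac1 and Trib3, at 1.75% ± 1.04 and 0.316% ± 0.251 of uninjured cells, were found in 36.2% ± 4.2 and 14.7% ± 3.16 of injured cells (SD, n = 6 and 3). For all 10 genes each injured sample had a higher share of thinned cells than each uninjured library, as had 13.7% of the 14234 genes tested. Ppp1r15a went from 4.35% ± 1.77 to 10.6% ± 3.79 (SD, n = 6 and 3).

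In the cells as deposited, where uninjured cells are deeper, the shares drew together for the abundant genes. The share for Atf4 was 79.6% ± 2.85 before and 91.8% ± 5.08 after injury, and for Asns 80.0% ± 3.93 and 89.5% ± 7.37 (SD, n = 6 and 3), where the groups overlapped. Free RNA in droplets gives UMIs to cells that do not express a gene, and cells that should lack these genes were not analysed here.

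The number of the 10 genes with a UMI was also counted in each cell. Its mean is the sum of the shares of the single genes, so these counts do not show whether the genes fell in the same cells. A thinned uninjured cell held a UMI of 1.23 ± 0.0770 of the 10 genes on average (SD over 6 libraries), and a thinned injured cell of 4.34 ± 0.0474 (SD over 3 samples). Cells with at least 3 of the genes were 9.97% ± 2.23 before and 84.0% ± 1.43 after injury, and those with at least 5 were 0.297% ± 0.390 and 50.1% ± 3.39 (SD, n = 6 and 3). Cells without a UMI of any of the 10 made up 19.6% to 30.2% of the uninjured libraries and 0.896% to 2.32% of the 4 injured libraries. The most frequent number of genes per cell was 1 in each uninjured and 5 in each injured library.

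**Figure D4:**
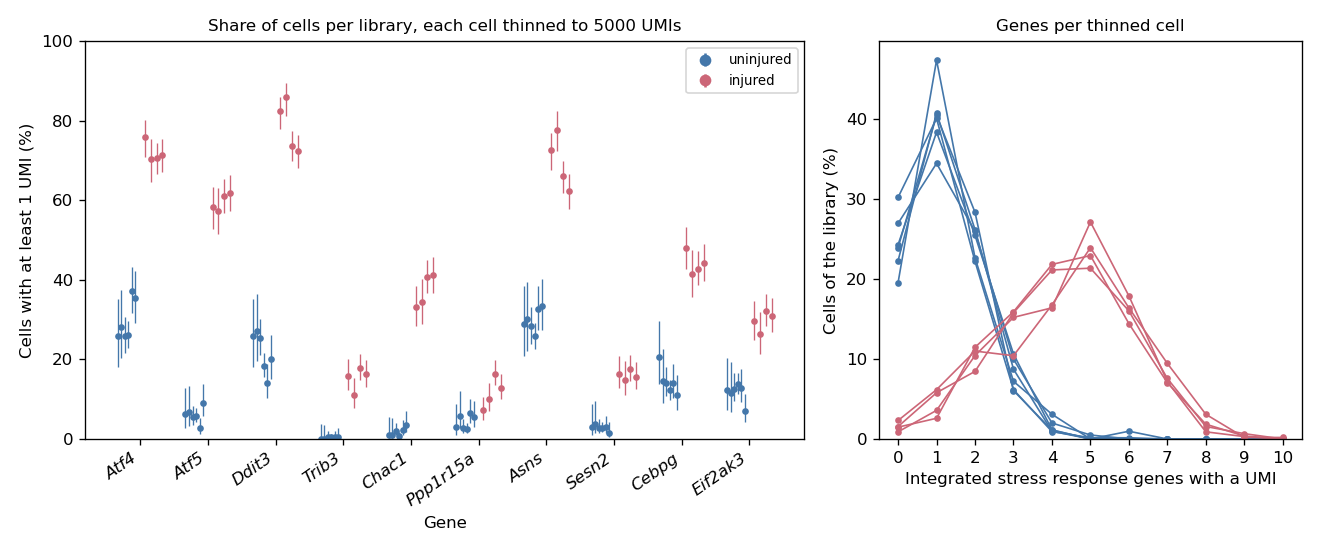
Left, percent of cells with at least 1 UMI of each ISR gene after thinning to 5000 UMIs per cell, 1 point per library with its Wilson 95% interval, uninjured in blue and injured in red. Right, percent of each library's cells by the number of ISR genes with a UMI, which peaks at 1 gene in uninjured and at 5 genes in injured libraries.

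Within the injured cells, the genes varied together only in part. Spearman's rho was taken across the thinned cells of each injured library (270 to 518 cells) for the 45 pairs of genes, as a description, and averaged over the 3 samples. The median over the 45 pairs was 0.0618, against 1.92e-05 over all 19440730 pairs of the 6236 genes seen in at least 10% of the thinned cells in each injured library, whose 95th percentile was 0.0722. Ppp1r15a was seen too rarely to be among the 6236, and the 36 pairs of the other 9 genes had a median of 0.0895. Of the 45 pairs, 30 were positive in all 3 samples (25 of the 36) and 17 had a mean above 0.1, against 16.3% and 2.00% of all pairs. The strongest were Atf4 with Ddit3 (0.294; 0.19, 0.228 and 0.463 in injured 1, 2 and 3/4), Atf5 with Ddit3 (0.288), Atf4 with Chac1 (0.248), Ddit3 with Chac1 (0.225) and Ddit3 with Asns (0.217). In the 6 uninjured libraries, where both genes had fewer UMIs, Atf4 with Ddit3 came to -0.00994 (-0.0857 to 0.0683). In counts this sparse such values are small, and cells of a library share their depth after thinning and their preparation.

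Ddit3 stood closest to the rest, with a median rho of 0.206 with the other 9 genes, and Eif2ak3 farthest, with a median of -0.00938 and its highest value, 0.0404, with Cebpg. Ppp1r15a and Sesn2 had medians of 0.0476 and 0.0331. With droplets under 1% ribosomal UMIs left out, a setting chosen after seeing the data, the median over the 45 pairs was 0.0634, 14 pairs had a mean above 0.1, and Atf4 with Ddit3 came to 0.24, with 0.309 in injured 3/4.

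Injured cells were also divided by a UMI of Ddit3, into 276 with and 59 without in injured 1, 232 and 38 in injured 2, 382 and 136 in injured 3, and 325 and 124 in injured 4. Atf4, Atf5, Chac1, Asns and Cebpg were seen more often with Ddit3 in all 3 samples, as were 22.0% of the 6235 other genes seen in at least 10% of cells. Trib3 and Ppp1r15a were too, but in injured 1 and 2 their shares without Ddit3, and that of Sesn2, come from 1 to 3 cells. The level of the RGC marker Rbpms was lower with Ddit3, at 0.894, 0.758 and 0.675 times that without. By share of cells, Rbpms was seen more often with Ddit3 in injured 1 (77.2% against 69.5%) and injured 2 (73.3% against 68.4%). In injured 3/4 it was seen less often (77.8% against 83.1%). The level of Sncg, also an RGC marker, was at 0.69, 0.61 and 0.97 times that without Ddit3. By share, Sncg was seen less often with Ddit3 in injured 1 (85.9% against 91.5%) and injured 2 (91.4% against 94.7%). In injured 3/4 it was seen more often (90.9% against 77.6%). The other RGC markers, and the share of all genes lower with Ddit3, were not counted in this split. Atf4 was seen in 77.5%, 74.1% and 81.9% of the cells with Ddit3 in injured 1, 2 and 3/4, and in 67.8%, 47.4% and 41.6% of those without. Asns was seen in 75%, 78.5% and 74.5% with and in 61.0%, 73.7% and 35.9% without Ddit3, and Atf5 in 61.6%, 60.8% and 69.9% with and in 42.4%, 36.8% and 38.7% without. Chac1 was seen in 36.2%, 37.9% and 48.4% of the cells with Ddit3 in injured 1, 2 and 3/4, and in 18.6%, 13.2% and 20.8% of those without. Cebpg was seen in 51.8%, 45.3% and 47.3% with Ddit3 and in 30.5%, 18.4% and 33.4% without. Trib3 was seen in 18.1%, 12.1% and 19.2% with and in 5.09%, 5.26% and 11.3% without, and Ppp1r15a in 7.61%, 11.2% and 18.8% with and in 5.09%, 2.63% and 3.49% without. Sesn2 and Eif2ak3 differed between the samples, since they were seen more often with Ddit3 in injured 1 and 2 but not in injured 3/4. Sesn2 was in 18.8%, 16.8% and 16.5% of cells with and in 5.09%, 2.63% and 16.9% of cells without Ddit3, and in injured 3/4 Eif2ak3 was in 29.8% of cells with and 36.5% of cells without Ddit3. In injured 3 and 4 the cells without Ddit3 also had few ribosomal UMIs, a median of 0.620% and 1.47% against 5.86% and 5.70% in the cells with it, and in injured 1 and 2 the medians were 3.92% and 4.93% against 5.70% and 6.10%. Malat1 was lower without Ddit3 in injured 1 to 4 (medians of 4.76%, 4.83%, 5.43% and 5.72% against 7.77%, 6.81%, 8.84% and 8.70%), and the mitochondrial share was higher (3.66%, 3.59%, 2.15% and 1.82% against 2.91%, 3.02%, 1.52% and 1.36%). Before thinning the cells without Ddit3 had medians of 17658, 17067, 14156 and 11531 UMIs, against 14275, 13981, 14500 and 11568. The part of these in the differences was not tested.

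**Figure D5:**
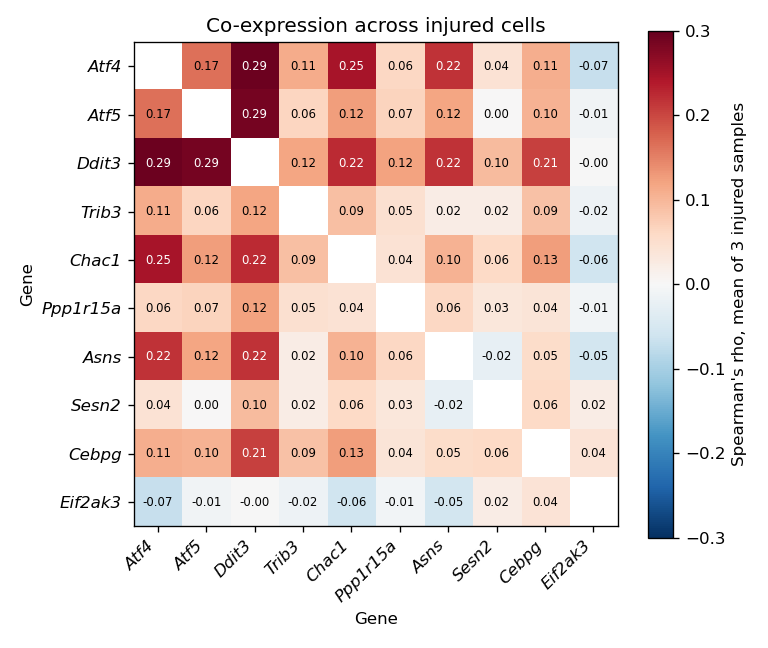
Spearman's rho between each pair of ISR genes across injured cells thinned to 5000 UMIs, as the mean of 3 injured samples, from blue (negative) to red (positive). Ddit3 and Atf4 share the reddest cells, up to 0.294, and the Eif2ak3 row lies between -0.0702 and 0.0404.

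Among injured cells, those with a UMI of Atf3 (all but 58, 45, 125 and 106 cells in injured 1 to 4) had higher levels of 9 of the 10 genes in each sample, as of 22.1% of 6235 genes, though Cebpg differed by only 1.2, 1.05 and 1.14 times, Sesn2 in injured 2 was at 32.9 against 31.1 CPM and Trib3 in injured 1 at 34.7 against 34.5 CPM. Without Atf3, the values of Ppp1r15a and Sesn2 in injured 1 come from 4 cells each. Those of Trib3 and Ppp1r15a in injured 2 come from 2 and 3 cells. By share of cells with a UMI, Cebpg and Sesn2 were less frequent with Atf3 in injured 2, at 41.3% against 42.2% and 14.7% against 15.6%, and 20.7% of the 6235 genes were more frequent with Atf3 in all 3 samples. The RGC marker Rbpms was at 0.615, 0.665 and 0.667 times its level without Atf3. Sncg, another RGC marker, was at 0.886 and 0.96 times in injured 1 and 2 but at 1.15 times in injured 3/4. The share of all genes lower with Atf3 was not counted. Ddit3 was at 639, 701 and 630 CPM (here not TMM-scaled) in Atf3-positive cells of injured 1, 2 and 3/4 and at 517, 436 and 297 in Atf3-negative cells, and Chac1 was 2.91, 2.95 and 2.70 times as high. Eif2ak3 did not follow, at 70.8, 71.1 and 75.6 CPM with and 75.9, 71.1 and 99.2 without Atf3. Cells with Atf3 also had more ribosomal UMIs, a median of 5.62%, 6.10%, 5.72% and 5.42% against 5.04%, 4.68%, 3.94% and 4.14% in injured 1 to 4, more Malat1 (7.44%, 6.54%, 8.36% and 8.34% against 6.8%, 5.34%, 6.2% and 6.11%), a higher mitochondrial share in injured 1 to 3 but not 4 (3.16%, 3.18%, 1.66% and 1.48% against 2.63%, 2.84%, 1.52% and 1.53%), and more UMIs before thinning, a median of 15515, 15235, 15368 and 12320 against 12794, 12317, 11951 and 9470.5. The part of these in the differences was not tested.

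In injured 3 and 4, which share cells, droplets poor in ribosomal protein transcripts (99 and 80 droplets) were set beside the other droplets. The share of all genes that differed between them was not counted, so no difference can be read as particular to the ISR genes. Ddit3 was at 52.5 and 42.4 CPM (not TMM-scaled) in the poor droplets, against 601 and 573 in the other droplets, and Atf4 at 74.2 and 60.3 against 395 and 401. Atf5 was at 59.2 and 70.4 against 256 and 263, and Chac1 at 38.2 and 29.0 against 149 and 155. Asns was at 43.5 and 35.7 against 325 and 292, and Ppp1r15a at 11.2 and 13.4 against 33.0 and 29.0. Trib3 was at 27.7 and 31.3 against 31.9 and 29.9, and Cebpg at 90.7 and 93.8 against 104 and 109. Both genes had overlapping 95% Poisson intervals, which cover counting error only. Eif2ak3 was higher in the poor droplets, 118 and 124 against 67.5 and 67.3, and so was Sesn2, 63.0 and 62.6 against 33.7 and 29.9. Cells without an mCherry UMI (74 in each library) also had less Ddit3, 104 and 204 CPM against 572 and 537 in cells with it, and 81.1% and 70.3% of them were droplets poor in ribosomal transcripts. In injured 1 and 2, where few cells had mCherry (27 and 41), Ddit3 was at 545 and 556 CPM without it and at 502 and 566 CPM with it, with overlapping Poisson intervals.

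The genes most like the 10 were sought among 6227 other genes, by Spearman's rho across thinned injured cells with the mean standardized level of the 10 genes. The median over the 6227 was 0.00174. The highest were Eif1, a start-codon selection factor (0.465), Gm13889 (0.433), Tnfrsf12a, the TWEAK receptor (0.404), Rps7 (0.391), Stmn4, a stathmin of neurons (0.386), Rps24 (0.385), Rpl5 (0.372), Eif2s2 (0.369), Eef1a1 (0.366) and H2az1 (0.36). Of these 10, 9 were also higher after injury, Tnfrsf12a the most, from 3.66 to 491 CPM (log2 7.10; edgeR adjusted p = 6.33e-09), and H2az1 did not pass the test. Over all genes tested 21.3% were higher. The 6227 had to be seen in at least 10% of the thinned cells of each injured library, which favours genes high after injury. Their own share of higher genes was not counted, so the 9 of 10 is no result about these genes. Without the droplets poor in ribosomal transcripts the 10 values were 0.288 to 0.405. The lowest were Lingo2 (-0.426), Lsamp (-0.418), Clstn2 (-0.36), Gria4 (-0.348) and Kcnb2 (-0.345).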

How the data were processed

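Per the labels and the paper's methods, the authors isolated RGCs with antibodies to Thy1, prepared droplet libraries (6000 cells loaded) and deposited for each cell the UMI count of every gene, unnormalized, from Cell Ranger on mm39. The labels give its version as 7.0.1; the paper gives an earlier version, and the 2 sources also differ in kit chemistry and sequencer, so how the counts were made is uncertain to that extent. The limits the authors state (500 or more genes, no more than 20% mitochondrial and 150000 total UMIs) were met by every deposited cell; doublets were not called again. The study's text gives fewer injured cells than the 1609 in the files. It gives more than the 1188 left when the barcodes shared by injured 3 and 4 are counted once.

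Counts were summed per library (Python 3.11.15, scipy 1.17.1), injured 3 and 4 averaged with rounding, and tested with edgeR 4.0.16 in R 4.3.3 (filterByExpr, TMM, robust quasi-likelihood, Benjamini-Hochberg over all genes, threshold 0.05), after a check on simulated data. Cells were thinned without replacement. Alternatives included DESeq2 1.42.0, limma 3.58.1, other scalings, filters and samples left out. Named genes were all 10 members and, per list, the most abundant gene and up to 4 with the largest change. Members and lists were chosen with earlier results of these data known. Transcripts were compared with blastn 2.17.0, and no near-identical copy of the 10 genes was found at another locus.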

Additional observations from a re-analysis of the deposited data

Results flagged for a closer look

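Over 45 sets of 6 uninjured values (levels and shares of the 10 genes, genes per cell and summed lists), 2 had a library far from the others, about the number chance gives at 1 in 20. Cebpg had a UMI in 20.6% of the thinned cells of uninjured 1, against 11% to 14.6% in the other uninjured libraries. Eif2ak3 had a UMI in 7% of the thinned cells of uninjured 6, against 11.7% to 13.7% in the others. In neither case did the library reach the injured samples, and groups of 3 injured samples were too small to be looked at this way.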

How the results depend on the processing

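In 28 alternative fits (DESeq2, limma-voom, other scalings, filters, cell selections and sets of samples) the 10 ISR genes gave 278 log2 fold changes, all positive and past the threshold. Chac1 and Trib3 gave none under the filter of 10 UMIs in every sample, where 8 genes were tested and 8 were higher. The adjusted p of Ppp1r15a reached 0.0206, and its log2 fold change ran from 1.3 to 2.06; in libraries 1 to 4 it was above that of Asns and Cebpg. Over all genes the planned fits made 4181 to 8262 calls, against 6256. Leaving out 1 library at a time gave 4961 to 6420. Leaving out injured 1 and 2 gave 3160 and leaving out uninjured 5 and 6 gave 7687, both chosen after seeing the data.

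Same-numbered libraries did not deviate together (correlations -0.08, 0.04, -0.02 and -0.09 for libraries 1 to 4), so the numbers do not pair the samples. With the replicate block 7782 genes were called, against 8230 without it in the same 8 libraries, and all 10 ISR genes were higher in both.

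Thinning to 10000 UMIs moved the median rho over the 45 pairs from 0.0618 to 0.0823. Of 20 differences in share under the other depths, 16 moved by more than 1 SD and none changed sign. In cells thinned to 5000 UMIs the log2 fold change of Atf5 moved from 3.93 to 4.31, that of Trib3 from 4.90 to 5.25 and that of Chac1 from 5.08 to 4.98. Uninjured libraries held 1 to 28 UMIs of Trib3 and 6 to 61 of Chac1. The cause of none of these shifts was tested.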
